A study of Homo sapiens with 16 samples.

Results

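H3K27ac, acetylation of lysine 27 on histone H3, was mapped by chromatin immunoprecipitation and sequencing in the established melanoma line A375 after TGFB1 and after its vehicle. The 2 H3K27ac peak lists were taken whole on chromosomes 1 to 22 and X. They hold 80848 peaks with TGFB1 and 79038 in vehicle, 159886 of the 396690 peaks in the 10 lists of the study. Cells of both groups were first starved for 2 h. They then received TGFB1 at 10 ng/mL, or 4 mM HCl with 1 mg/mL BSA as vehicle, for 2 h. Each side is 1 library of 1 cell line. Differences therefore carry no replicate check, and no p-value is given. A peak was called shared when it overlapped the other list by at least 1 bp, and TGFB1-only or vehicle-only when it did not. Intervals are 95% Wilson intervals over peaks, regions or windows and cover counting error only. Where a count is 0, the share it allows is given as 3 counts of the total.

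TGF-beta ligands bind paired serine/threonine kinase receptors at the cell surface, which phosphorylate SMAD2 and SMAD3. These enter the nucleus with SMAD4, bind DNA beside other factors such as those of the AP-1 family, to which JUNB and ATF3 belong, and recruit histone acetyltransferases. H3K27ac marks active promoters and active enhancers, and enhancers in particular gain or lose it with a stimulus. In melanoma, TGF-beta signalling is known for matrix production, invasion and loss of pigment cell features.

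The labelled cell line was set beside lineage genes. Of 7 pigment cell markers, SOX10, MITF and PMEL had a promoter peak in both lists, and MLANA, TYR, TYRP1 and DCT had none. Of 20 markers of other cell types, 5 had a promoter peak in both lists (ACTN2, CD3E, KRT14, GFAP and SNAP25). Their pileups, defined next, ran from 36 to 92 with TGFB1 and from 31 to 60 in vehicle, against 254 and 230 at the GAPDH promoter. Depth recovered from the peak values was 23.2 M reads with TGFB1 and 21.5 M in vehicle. The lowest background was 1.08-fold higher with TGFB1. Below, pileup means the number of fragments over a peak's summit, recovered in the same way, and ratios of pileup between libraries are divided by that factor.

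Promoter peaks called with TGFB1 alone were few. Of these 765 peaks, 16 also held a SMAD2/3 peak called after TGFB1, against 1 of 657 vehicle-only promoter peaks. A promoter peak here has its summit within 1 kb of a transcription start. Sequences are printed for 4 of the 16, at NDST1, a heparan sulfate sulfotransferase, KLK6, a secreted serine protease, DAPK3, a death-associated kinase, and RAPGEF1, an exchange factor for RAP1. The peak at CLN8, with a higher −log10 p than those at KLK6, DAPK3 and RAPGEF1, also held SMAD2/3, and its sequence is not printed. The 250 bases before each start are printed 5′ to 3′ in the direction of transcription, from RefSeq on GRCh38.p14. They are shown because each promoter had an acetylation peak called with TGFB1 alone that held SMAD2/3. The calls are of peaks and not of whole promoters. A vehicle H3K27ac peak lay 162 bp from the NDST1 peak and 301 bp from the KLK6 peak. Capitals mark CAGAC, the SMAD box, or its reverse complement GTCTG, and TGANTCA, the AP-1 site.
NDST1: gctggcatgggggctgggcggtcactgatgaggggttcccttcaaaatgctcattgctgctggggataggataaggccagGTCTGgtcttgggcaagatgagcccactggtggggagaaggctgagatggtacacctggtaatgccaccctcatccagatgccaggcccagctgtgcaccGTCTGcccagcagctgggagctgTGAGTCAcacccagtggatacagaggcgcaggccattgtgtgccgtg
KLK6: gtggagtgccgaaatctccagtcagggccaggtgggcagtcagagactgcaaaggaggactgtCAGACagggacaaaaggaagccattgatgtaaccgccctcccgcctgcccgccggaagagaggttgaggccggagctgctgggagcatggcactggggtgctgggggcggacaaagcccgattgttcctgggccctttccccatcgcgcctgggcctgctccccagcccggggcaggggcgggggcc
DAPK3: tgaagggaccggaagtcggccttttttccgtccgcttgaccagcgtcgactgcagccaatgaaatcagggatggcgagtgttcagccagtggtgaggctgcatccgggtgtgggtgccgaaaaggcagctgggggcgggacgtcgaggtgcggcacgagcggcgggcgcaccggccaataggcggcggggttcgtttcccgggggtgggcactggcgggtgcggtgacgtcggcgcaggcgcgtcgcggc
RAPGEF1: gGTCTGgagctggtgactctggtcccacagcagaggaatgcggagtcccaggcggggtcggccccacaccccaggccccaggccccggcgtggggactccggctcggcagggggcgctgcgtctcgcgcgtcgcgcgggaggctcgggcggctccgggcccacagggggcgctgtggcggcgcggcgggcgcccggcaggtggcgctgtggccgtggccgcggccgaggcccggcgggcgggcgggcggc
The NDST1 stretch is chr5:150497529-150497778 on the plus strand, the KLK6 stretch chr19:50969592-50969841, the DAPK3 stretch chr19:3971100-3971349 and the RAPGEF1 stretch chr9:131740077-131740326, these 3 on the minus strand. NDST1 held 2 SMAD boxes and 1 AP-1 site, KLK6 and RAPGEF1 held 1 SMAD box each, and DAPK3 held neither motif. The NDST1 peak (150497067 to 150497664) covered the upstream part of its stretch and had its summit 234 bases before the start, at a pileup of 48. It held 1 of the 2 SMAD boxes and ended before the other box and the AP-1 site. The KLK6 peak (50969731 to 50970154, pileup 31) and the RAPGEF1 peak (131740223 to 131740406, pileup 22) also overlapped theirs, while the DAPK3 peak (3971380 to 3971578, pileup 24) lay just upstream.

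Across promoters these letters did not set the TGFB1-only group apart. Motifs were counted on both strands in the RefSeq windows of 300 bases (250 before and 50 after the start). A SMAD box occurred in 45.9% of 146 windows touched by a TGFB1-only peak and by no vehicle peak (38.0 to 54.0), in 43.0% of 135 touched by a vehicle-only peak and by no TGFB1 peak (34.9 to 51.4) and in 44.9% of all 22131 windows. The AP-1 site TGANTCA occurred in 7.53%, 5.93% and 6.15%. It was more frequent in windows that overlap a shared region whose pileup was at least 2-fold higher with TGFB1, at 8 of 31 (25.8%, 13.7 to 43.2), against 4.48% of 13117 windows touched by shared peaks only (4.14 to 4.85). These are matches of letters within the windows and say nothing of binding.

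TGFB1 cells had more peaks of their own than vehicle cells, and the strongest of them exceeded any vehicle-only peak. TGFB1-only peaks numbered 17615, which is 21.8% of the TGFB1 list (21.5 to 22.1), and vehicle-only peaks numbered 13294, or 16.8% of the vehicle list (16.6 to 17.1). The ratio of the numbers was 1.33 over all chromosomes and lay above 1 on 23 of 23, from 1.10 on chromosome 9 to 1.72 on chromosome 18. With a reciprocal overlap of 50% required for sharing, the numbers were 31306 and 29496. The part of the difference in depth in this excess was not tested. Both kinds were mostly weak and narrow. TGFB1-only peaks had a median width of 246 bp and a median pileup of 13, and vehicle-only peaks 230 bp and 12. Shared peaks had median widths of 623 bp in the TGFB1 list and 563 bp in the vehicle list, with median pileups of 32 and 27. Peaks called alone therefore held only 8.43% of the acetylated bases of the TGFB1 list and 6.12% of those in vehicle.

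The lists parted at the strong end. By the authors' −log10 p, 438 TGFB1-only peaks reached 20, 132 reached 30 and 36 reached 50, against 35, 3 and 0 vehicle-only peaks. Peaks wider than 1 kb numbered 117 with TGFB1 alone and 9 in vehicle alone. The highest pileup was 105 with TGFB1 alone and 72 in vehicle alone. TGFB1-only peaks thus reached strengths at which no vehicle-only peak was found, although these values come from 2 libraries called separately.

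Most peaks called alone lay near acetylation of the other list. A peak of the other list was within 1 kb of 50.2% of those with TGFB1 and of 53.7% of those in vehicle. More than 10 kb from any were 4328 TGFB1-only peaks (24.6%, 23.9 to 25.2) and 2834 vehicle-only peaks (21.3%, 20.6 to 22). Peaks that lay within 10 bp of the other list without overlapping it numbered 50 and 58. Those shared by an overlap of 1 to 10 bp numbered 54 and 43.

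**Figure D1:**
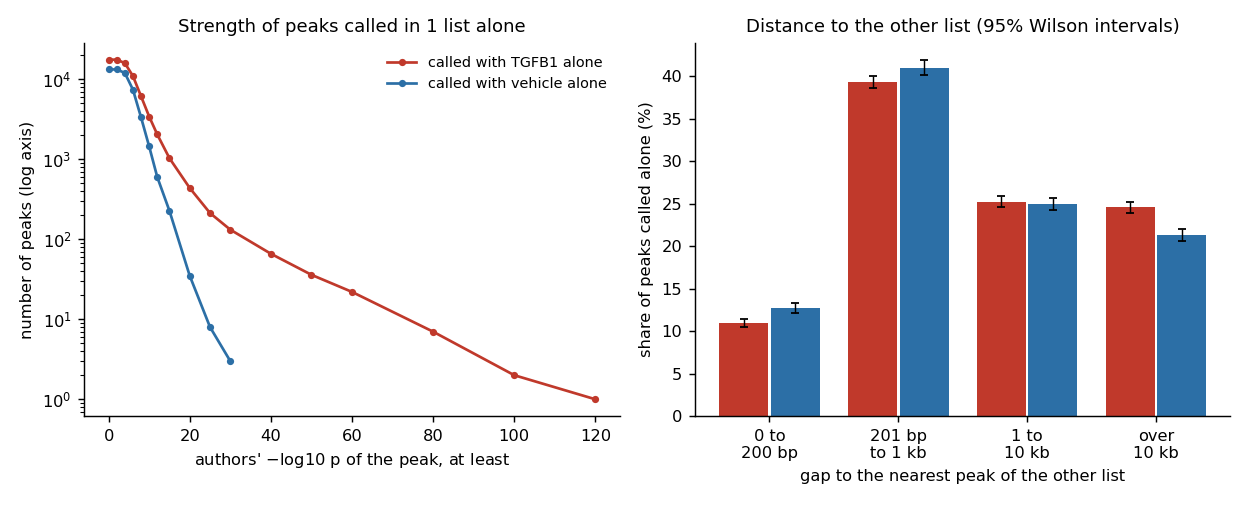
Left, the number of H3K27ac peaks called in 1 list alone (log axis) that reach at least the authors' −log10 p on the horizontal axis, for TGFB1 (red) and vehicle (blue), which start at 17615 and 13294 and stand at 132 against 3 at 30. Right, bars give the share of these peaks by the gap to the nearest peak of the other list, with 95% Wilson intervals; 24.6% and 21.3% lie more than 10 kb away.

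Promoters rarely gained or lost a call. Promoter peaks made up 4.34% of TGFB1-only peaks (4.05 to 4.65), 4.94% of vehicle-only peaks (4.59 to 5.32) and 23.9% of shared peaks in the TGFB1 list. Seen from the location, 4.81% of the 15906 promoter peaks of the TGFB1 list were TGFB1-only, against 26.0% of the 32545 peaks in gene bodies and 25.9% of the 32397 intergenic peaks. In the vehicle list the shares called alone were 4.07%, 21.6% and 18.5%. Promoter peaks were also stronger: shared peaks of the TGFB1 list had a median pileup of 124 there, 25 in gene bodies and 27 between genes. The part of peak strength in these shares was not tested. TGFB1-only peaks were intergenic in 47.7% (46.9 to 48.4) and vehicle-only peaks in 42.6% (41.8 to 43.5). Of 19970 protein-coding genes, 13052 had a peak within 1 kb of a start in both lists, 220 with TGFB1 alone (1.1% of genes) and 179 in vehicle alone (0.896%).

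The strongest TGFB1-only promoter peaks were at genes of several functions. GPR17, an orphan G protein-coupled receptor, had a peak 948 bp wide with a pileup of 45. SERPINA1, the alpha-1 antitrypsin gene, had one with a pileup of 29. MDFI, an inhibitor of myogenic factors, reached 38, CLN8, an endoplasmic reticulum protein, 27, and PCDHGA1, a protocadherin, 28. PACSIN2, KLK6 and TUBA4A reached 34, 31 and 28. SMAD2/3 lay in the peaks at NDST1, CLN8 and KLK6 and not in those at GPR17, SERPINA1, MDFI, PCDHGA1, PACSIN2 and TUBA4A.

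The strongest vehicle-only promoter peaks were at MBNL2, a splicing regulator, with a pileup of 29, STMN2, a neuronal microtubule regulator, with 24, RBM38, an RNA-binding protein, with 36, KSR1, a scaffold of the MAPK cascade, with 31, and CLDN2, a tight junction claudin, with 26. None of the 5 held SMAD2/3, and 4 of the 5 lay within 361 bp of a TGFB1 peak. The exception was CLDN2. Of the TGFB1-only promoter peaks named above, those at NDST1, PACSIN2, KLK6, SERPINA1 and CLN8 likewise lay 162 to 331 bp from a vehicle peak. Those at MDFI, TUBA4A, PCDHGA1 and GPR17 lay 2233 to 4047 bp from one.

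The strongest TGFB1-only peaks away from promoters all held SMAD2/3. The 10 at the top lay near or inside LOC124906252, TNFRSF13B, YEATS4, TGFBI, FZD2, DHRS3, SLC2A12, PMEPA1, TGFB2 and PARN, and 9 of them also overlapped JUNB of TGFB1-treated cells. TNFRSF13B, a receptor for B cell survival factors, is the one without JUNB, and its peak 27.7 kb outside the gene had the highest pileup of any TGFB1-only peak (105). The peak inside TGFB2, which encodes a ligand of the pathway, spanned chr1:218373849-218375034 with a pileup of 88. The peak inside DHRS3, a retinal reductase, had a pileup of 98 and the one inside PARN, a poly(A) ribonuclease, 75. By contrast the strongest vehicle-only distal peaks were low. The one 92.2 kb from KCTD3 had a pileup of 33, the one inside COL6A2, a chain of type VI collagen, 39, the one near MYOM1 27 and the one near DDX11 47, and none held SMAD2/3.

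SMAD2/3 and AP-1 factors mapped after TGFB1 were found more often at TGFB1-only than at vehicle-only acetylation. The same factor lists, from TGFB1-treated cells unless stated, were laid over both. By the dates in the sample titles, SMAD2/3 and H3K27ac belong to 1 date, and MITF, and JUNB with ATF3, to 2 later ones, so differences between these factors cannot be told apart from date. SMAD2/3 overlapped 536 of 16850 distal TGFB1-only peaks (3.18%, 2.93 to 3.46) and 63 of 12637 distal vehicle-only peaks (0.499%, 0.39 to 0.637). JUNB overlapped 13.1% and 8.82% of them and ATF3 9.0% and 6.51%. MITF, the pigment lineage factor, overlapped 0.451% (0.361 to 0.564) and 0.301% (0.219 to 0.412), whose intervals overlap. With the SMAD2/3 summit required inside the acetylated interval, the shares over all locations were 0.778% and 0.181%. The same requirement gave 2.95% and 2.63% for JUNB and 2.83% and 2.28% for ATF3, much closer to each other. Shared distal peaks held each factor more often than either, with 12.3% for SMAD2/3 and 30.6% for JUNB in the TGFB1 list, but they are wider. At widths of 300 to 600 bp, SMAD2/3 overlapped 4.19% of shared peaks in the TGFB1 list (3.91 to 4.49), 4.08% of TGFB1-only peaks (3.57 to 4.66) and 0.517% of vehicle-only peaks (0.323 to 0.826). JUNB at those widths overlapped 20.4%, 16.4% and 10.43%. Most peaks called alone held none of the 4 factors: 82.3% with TGFB1 and 87.9% in vehicle.

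The share with JUNB rose with peak strength on both sides. Among TGFB1-only peaks it was 7.96% below a −log10 p of 5, 20.03% from 10 to 20, 40.8% of the 402 from 20 to 50 and 66.7% of the 36 peaks at 50 or more. Among vehicle-only peaks it was 7.45%, 11.95%, and 25.7% of the 35 from 20 to 50, with 0 peaks in the last class. The 2 sides were thus close at the weak end, and the TGFB1-only share was the higher one in each stronger class. TGFB1-only peaks were also wider there, with medians of 308 against 272 bp from 10 to 20 and 559 against 336 bp from 20 to 50. Wider peaks offer more room for an overlap, and the part of width in these shares was not tested. SMAD2/3 and JUNB together lay in 320 TGFB1-only peaks (median width 467 bp, median pileup 23), and peaks with none of the 4 factors had medians of 240 bp and 13.

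**Figure D2:**
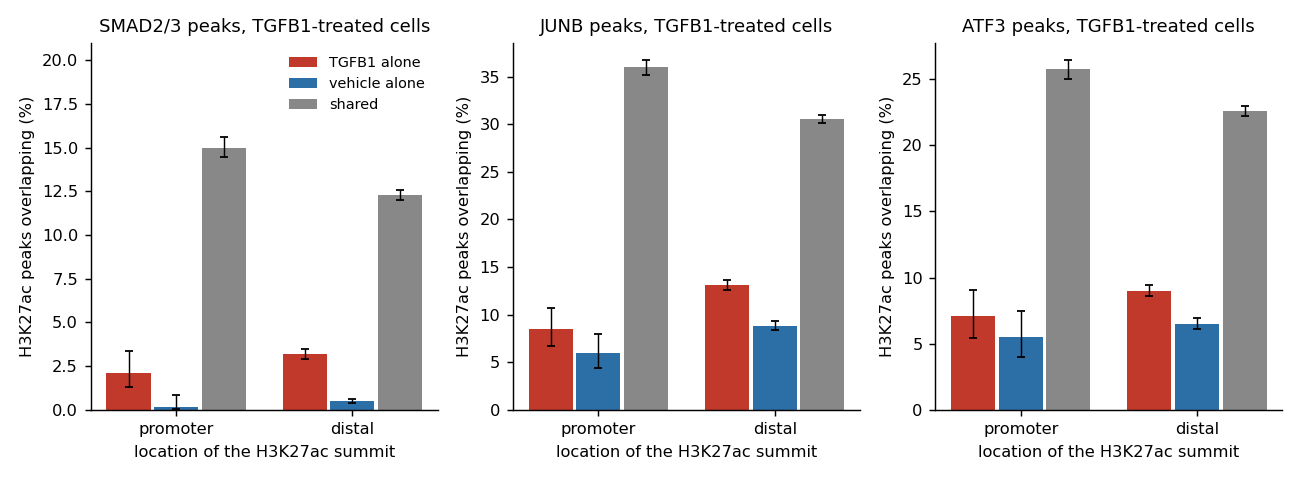
Bars give the share of H3K27ac peaks that overlap a SMAD2/3, JUNB or ATF3 peak of TGFB1-treated cells, split by the location of the acetylation summit, for TGFB1-only (red), vehicle-only (blue) and shared peaks of the TGFB1 list (grey), with 95% Wilson intervals and a vertical scale for each factor. At distal peaks SMAD2/3 reaches 3.18%, 0.499% and 12.3% in that order.

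TGFB1-only acetylation lay near SMAD2/3 sites more often than vehicle-only acetylation did. SMAD2/3 was within 1 kb of 2200 TGFB1-only peaks (12.5%, 12 to 13) and of 510 vehicle-only peaks (3.84%, 3.52 to 4.18), and within 10 kb of 35.3% and 22.9%. It was not nearer than to shared peaks of the TGFB1 list within 1 kb, where their share was 19.7%. Within 10 kb that share was 34.1%, close to the TGFB1-only one. These numbers include peaks that overlap SMAD2/3, and a wider window takes in more sites by its size. In the 552 TGFB1-only peaks that overlapped SMAD2/3, the 2 summits were a median of 249 bp apart (quartiles 171 and 357), and the SMAD2/3 summit fell inside the acetylated interval in 24.8%. In shared peaks that held SMAD2/3 the median was 289 bp and the SMAD2/3 summit fell inside in 65.7%. These shared intervals are wider, which bears on that share. In 64 vehicle-only peaks with SMAD2/3 the median was 169 bp.

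Most of the acetylation that SMAD2/3 touched was already present in vehicle, and there its level was more often higher with TGFB1. Overlapping intervals of the 2 lists formed 59411 shared regions. The summit pileup was at least 2-fold higher with TGFB1 in 1630 of them (2.74% of all shared regions) and at least 2-fold lower in 184 (0.31%). Of the 8327 regions with SMAD2/3, 653 were at least 2-fold higher (7.84%, 7.28 to 8.44) and 0 were at least 2-fold lower, which allows a share of up to 0.036%. Of the 51084 without it, 977 were higher (1.91%, 1.80 to 2.03) and 184 lower. The median log2 ratio of pileup over all shared regions was 0.08. Among regions with at least 20 fragments in both libraries, a limit set after seeing the data, 607 were at least 2-fold higher, 391 of them with SMAD2/3, and 11 at least 2-fold lower. Scaled to the median of all shared regions, also chosen after seeing the data, 1274 were higher, 540 of them with SMAD2/3, and 316 lower, 1 of them with SMAD2/3.

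The higher levels were at distal regions more often than at promoters. Distal regions with SMAD2/3 were at least 2-fold higher in 633 of 6053 (10.5%, 9.71 to 11.3), with a median log2 ratio of 0.27. Promoter regions with SMAD2/3 were so in 20 of 2274 (0.88%, 0.57 to 1.35), with a median of 0.04. Their median vehicle pileup was 170, against 46 at the distal ones. From 10 to under 20 fragments in vehicle the shares were 16.7% of 18 promoter regions (5.84 to 39.2) and 30.1% of distal ones. From 20 to under 40 they were 16.05% (9.63 to 25.5) and 15.8%, and from 40 to under 80 they were 2.35% (0.919 to 5.89) and 4.95%. At 80 and over, with 2005 of the promoter regions, the distal share was 0.184%. The part of starting level in the contrast by location was not tested. Distal regions with JUNB or ATF3 but no SMAD2/3 were higher in 2.95% and lower in 0.223%, and those with none of the 3 in 2.18% and 0.579%. Regions with MITF and no SMAD2/3, promoter and distal together, were at least 2-fold higher in 15 of 2272 (0.66%). They were at least 2-fold lower in 0, which allows up to 0.132%. Of these regions 1467 were at promoters, with 0 at least 2-fold higher, which allows up to 0.204%. The 805 distal ones were so in 15 (1.86%, 1.13 to 3.05), an interval that holds the 2.18% of distal regions with none of the 3.

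Weakly acetylated distal regions showed the largest share at least 2-fold higher, with and without SMAD2/3. The classes are set by the vehicle pileup, which is also the denominator of the ratio, so the trend across classes is not independent of counting error. The part of counting error in it was not tested. At an unscaled vehicle pileup of 10 to under 20, 30.1% of distal regions with SMAD2/3 were at least 2-fold higher (27 to 33.4) against 3.65% without it (3.37 to 3.94). From 20 to under 40 the shares were 15.8% and 1.42%, from 40 to under 80 they were 4.95% and 0.132%, and at 80 and over they were 0.184% and 0 of 1964, which allows up to 0.153%. The share with SMAD2/3 was above that without it in each of the 3 lower classes by more than the intervals. Regions were also wider with TGFB1 in 70.3% of those with SMAD2/3 (69.3 to 71.2) and in 57.0% of all shared regions. TGFB1 peaks joined several vehicle peaks into 1 in 4940 regions, and vehicle peaks joined several TGFB1 peaks in 2927.

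**Figure D3:**
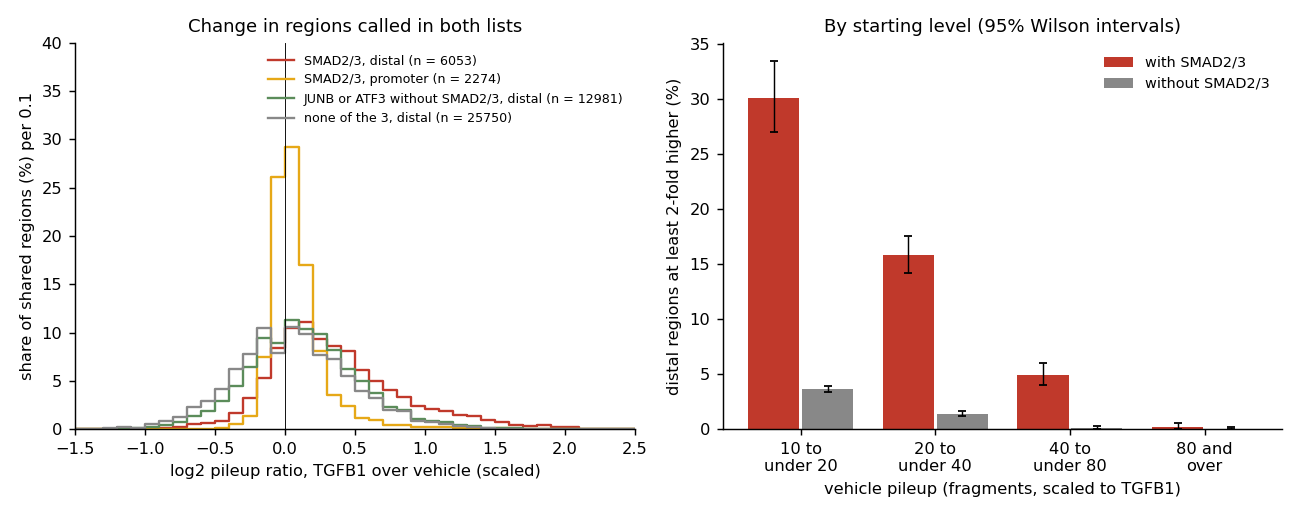
Left, distribution of the log2 ratio of summit pileup, TGFB1 over vehicle after scaling, in regions called in both lists, as the share of regions in steps of 0.1; distal regions with SMAD2/3 (red) have a median of 0.27 and promoters with SMAD2/3 (yellow) one of 0.04. Right, share of distal regions at least 2-fold higher by vehicle pileup, with (red) and without (grey) SMAD2/3, with 95% Wilson intervals. The classes use unscaled vehicle pileups, although the axis label reads scaled. At 10 to under 20 fragments the share is 30.1% against 3.65%.

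Genes known to respond to TGF-beta carried both new peaks and higher shared regions. The lists used here were chosen with earlier results of these libraries known, so their counts are not independent evidence. Summits in a gene or within 10 kb of it were assigned to it. TGFB1-only peaks were found at 31.5% of all protein-coding genes and vehicle-only peaks at 30.6%, and shared regions at least 2-fold higher and at least 2-fold lower at 4.03% and 0.616%.

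Peaks with SMAD2/3 were rarer, at 1.5% of genes for TGFB1-only peaks and 0.18% for vehicle-only peaks. More TGFB1-only than vehicle-only peaks were found at 21.5% of genes, and the reverse at 19.3%.

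Of 26 TGF-beta target genes, 18 had TGFB1-only peaks (69.2%) and 9 vehicle-only peaks (34.6%), 57 against 9 peaks in all. Within 50 kb the numbers of genes were 20 and 15, and at a −log10 q of at least 5 in both lists 20 and 5. More TGFB1-only than vehicle-only peaks lay at 14 of the 26 and the reverse at 1. A shared region at least 2-fold higher lay at 11 of the 26 (42.3%) and one at least 2-fold lower at 0. The median gene length was 6.68 kb in this list and 24.2 kb over all genes. Their promoters changed little as calls, since 25 of 26 had a promoter peak in both lists. For each gene the shared region with the largest ratio is given next, a choice that favours high ratios. Made in the same way, the values at housekeeping genes ran from 0.957-fold at YWHAZ to 1.52-fold at TUBB. The median length of housekeeping genes was 7.55 kb. Lists of longer genes described below offer more room for regions, so this range is not matched to them.

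COL7A1, the anchoring fibril collagen, had a promoter region with a pileup of 175 with TGFB1 and 46 in vehicle, 3.52-fold after scaling, where 1 TGFB1 peak spanned 4 vehicle peaks. IL11, a profibrotic cytokine, had 164 and 70 at its promoter (2.17-fold) and PDGFB, a growth factor chain, 42 and 19 (2.05-fold). LTBP2, a latent TGF-beta binding protein, had 162 and 47 in a region 7.20 kb outside the gene (3.19-fold). The regions at COL7A1, IL11 and LTBP2 held SMAD2/3 and the PDGFB region did not. ANGPTL4, a regulator of lipoprotein lipase, had 55 and 18 (2.83-fold), BHLHE40, a clock-linked repressor, 59 and 22 (2.48-fold), and LIF, a cytokine of the IL-6 family, 64 and 25 (2.37-fold). CCN2 and HES1 passed 2-fold at low pileups, 25 against 8 and 25 against 11.

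TGFBI, which encodes a secreted matrix protein induced by TGF-beta, had more acetylation with TGFB1 across its neighbourhood. Within 50 kb of this gene of 34.8 kb lay 16 TGFB1-only peaks and 1 vehicle-only peak. The strongest TGFB1-only peak there, 34.1 kb outside the gene (chr5:135994251-135995657), had a pileup of 86, and the only vehicle-only peak had 10. Shared TGFB1 peaks had pileups from 22 to 242 with a median of 91.5, and shared vehicle peaks from 11 to 125 with a median of 24.5. At the promoter the pileup was 242 with TGFB1 and 125 in vehicle, 1.79-fold. A distal shared region 22.5 kb outside had 90 and 13 (6.41-fold). Another region spanned 4473 bp with TGFB1 and 191 bp in vehicle, and one in the gene 4253 and 456 bp.

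NEDD9, a scaffold of focal adhesions tied to melanoma migration, likewise had 16 TGFB1-only peaks and 1 vehicle-only peak within 50 kb. The TGFB1-only pileups ran from 10 to 53 with a median of 13.5. The strongest (chr6:11317039-11318348) lay inside the gene and held SMAD2/3. A shared region in the gene had 34 with TGFB1 and 8 in vehicle (3.94-fold), with few fragments in vehicle. NEDD9 spans 199.1 kb, so it offers more room for peaks than TGFBI.

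**Figure D4:**
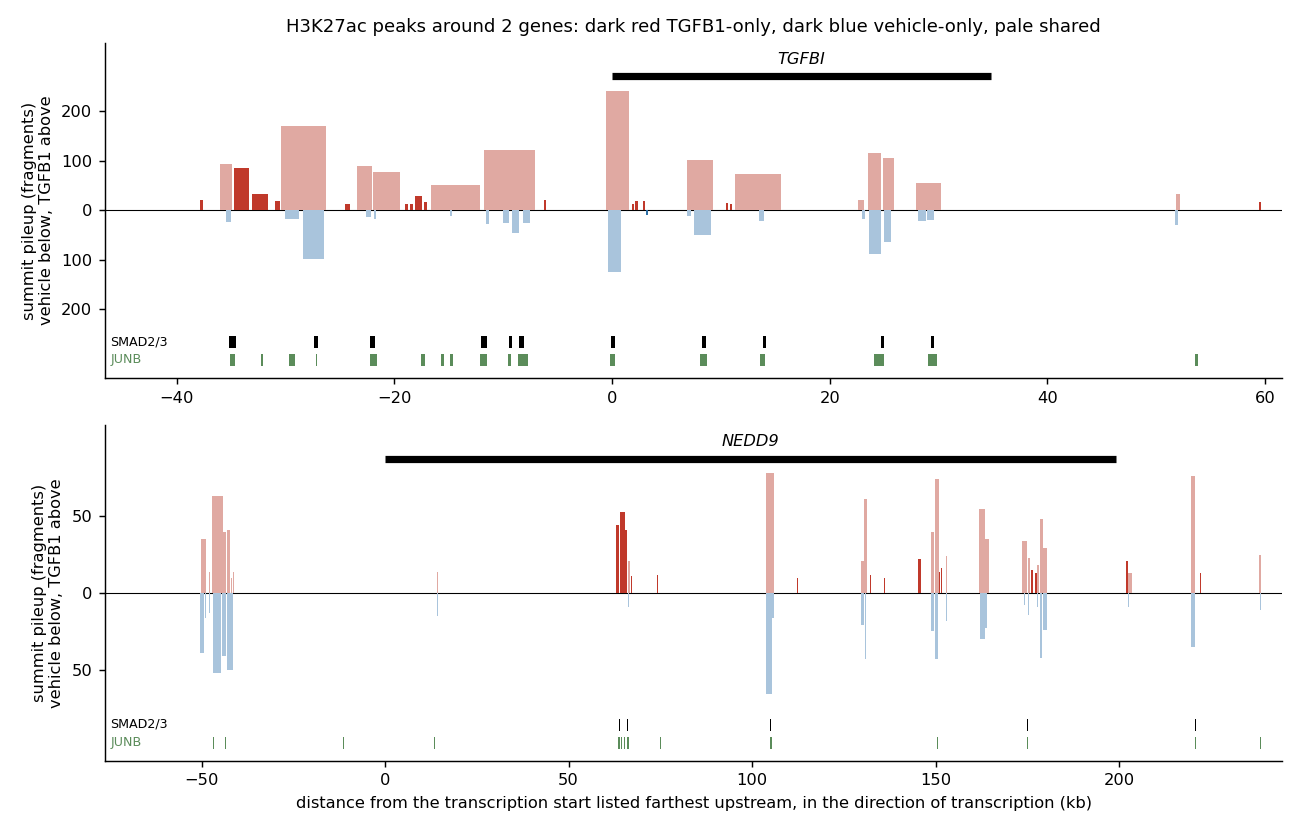
H3K27ac peaks around TGFBI and NEDD9 by distance from the transcription start in kb, with TGFB1 peaks drawn up and vehicle peaks drawn down to their unscaled summit pileup, and bars as wide as the peak; dark red is TGFB1-only, dark blue vehicle-only and pale colours shared; black and green ticks are SMAD2/3 and JUNB peaks of TGFB1-treated cells and the black line is the gene. TGFBI reaches 242 with TGFB1 and 125 in vehicle, and each gene has 16 TGFB1-only peaks and 1 vehicle-only peak.

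Among the pathway's own parts, new peaks lay at 11 of 21 ligand, receptor and SMAD genes (52.4%) and vehicle-only peaks at 8 (38.1%), 30 and 15 peaks in all. The median length was 54.8 kb in this list, 43.6 kb among feedback inhibitors, 36.3 kb among matrix genes and 62.5 kb among epithelial-mesenchymal transition factors, so all 4 offer more room for peaks than genes at large. At least 2-fold higher regions lay at 3 of the 21. The ligand gene TGFB2 had one with 62 with TGFB1 and 18 in vehicle (3.19-fold), the type II receptor gene TGFBR2 one with 84 and 29 (2.68-fold), and BMPR2 one with 14 and 6. The type I receptor gene TGFBR1 had 146 and 133 (1.02-fold). SMAD3 carried 10 TGFB1-only and 3 vehicle-only peaks, the strongest with a pileup of 40, while the SMAD4 promoter stood at 229 and 210 (1.01-fold).

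Of 14 feedback inhibitor genes, 8 had TGFB1-only peaks (57.1%) and 6 vehicle-only peaks (42.9%), 26 and 12 peaks in all. PMEPA1, which sequesters receptor SMADs, had 9 and 0, the strongest with a pileup of 62 at 7.45 kb outside the gene, and a shared region of 81 with TGFB1 against 26 in vehicle (2.89-fold). SKI, a SMAD corepressor, had 141 and 53 (2.46-fold). Its relative SKIL had 230 and 140 at the promoter (1.52-fold). SMAD7, the inhibitory SMAD, had 232 and 182 at its promoter, 3 TGFB1-only peaks and 0 vehicle-only peaks. The extracellular antagonists FST and CHRD had ratios of 0.873 and 0.789.

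Matrix and mesenchymal genes had TGFB1-only peaks at 16 of 25 (64.0%) and vehicle-only peaks at 11 (44.0%). Regions at least 2-fold higher lay at 6 of the 25 (24.0%) and at least 2-fold lower at 3: COL4A1, SPARC and TIMP3. COL5A1, a fibrillar collagen chain, had 8 TGFB1-only and 0 vehicle-only peaks, one with a pileup of 57, and its promoter had 123 and 48 (2.37-fold). TNC, the matrix glycoprotein tenascin C, had a region of 45 and 15 (2.78-fold), CDH2, N-cadherin, 30 and 11 (2.53-fold), and FN1, fibronectin, 29 and 12 (2.24-fold). COL4A1, a basement membrane collagen chain, had a region inside the gene of 21 with TGFB1 and 43 in vehicle (0.452-fold). The promoter that COL4A1 shares with COL4A2 had 247 and 203 (1.13-fold). LAMC1, a laminin chain, went the other way in peak number, with 4 TGFB1-only and 10 vehicle-only peaks.

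Transcription factors of the epithelial-mesenchymal transition had TGFB1-only peaks at 7 of 13 and vehicle-only peaks at 4. RUNX1 and ETS1 were the 2 with an at least 2-fold higher region, at 40 against 15 and 27 against 12. The promoters of SNAI1 and SNAI2 had 208 and 192, and 52 and 48, both 1.00-fold. AP-1 family genes had TGFB1-only peaks at 6 of 16 and vehicle-only peaks at 4, both near the share over all genes. FOSL2 alone passed 2-fold (60 and 27), and the JUN promoter had 158 and 111 and that of JUNB 269 and 225 (1.11-fold).

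Pigment cell genes had TGFB1-only peaks at 9 of 22 and vehicle-only peaks at 10. MET, the receptor of hepatocyte growth factor, was the 1 of 22 with a region at least 2-fold higher, at 68 with TGFB1 and 23 in vehicle (2.74-fold). The promoters of SOX10 and MITF had 263 and 265 (0.919-fold), and 80 and 67 (1.11-fold). PMEL and CDK2 share their promoter region, which had 131 and 135. Neural crest and dedifferentiation genes had TGFB1-only peaks at 14 of 19 and vehicle-only peaks at 11, both above the share over all genes. EGFR had a region of 39 and 12 (3.01-fold) and PDGFRB one of 121 and 47 (2.38-fold), 2 receptor tyrosine kinase genes. The AXL promoter, at a receptor tyrosine kinase of drug-tolerant melanoma cells, had 212 and 166.

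Lysosome genes had TGFB1-only peaks at 13 of 20 (65.0%) and vehicle-only peaks at 6, and 0 of the 20 had an at least 2-fold higher region. These peaks were low, from a pileup of 11 at LAMP2 and ATP6V1A to 29 near CTSA. Interferon and antigen presentation genes had TGFB1-only peaks at 6 of 26 and vehicle-only peaks at 8, cytokine and NF-kappaB genes at 7 and 5 of 21, and housekeeping genes at 4 and 6 of 18. The other cell types' markers had them at 3 and 6 of 20. Cytokine, housekeeping and other cell type genes had 0 regions at least 2-fold higher. The CXCL8, IL6, LDLRAD4 and BCL2A1 promoters were called in vehicle alone and the ATF3 promoter with TGFB1 alone.

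**Figure D5:**
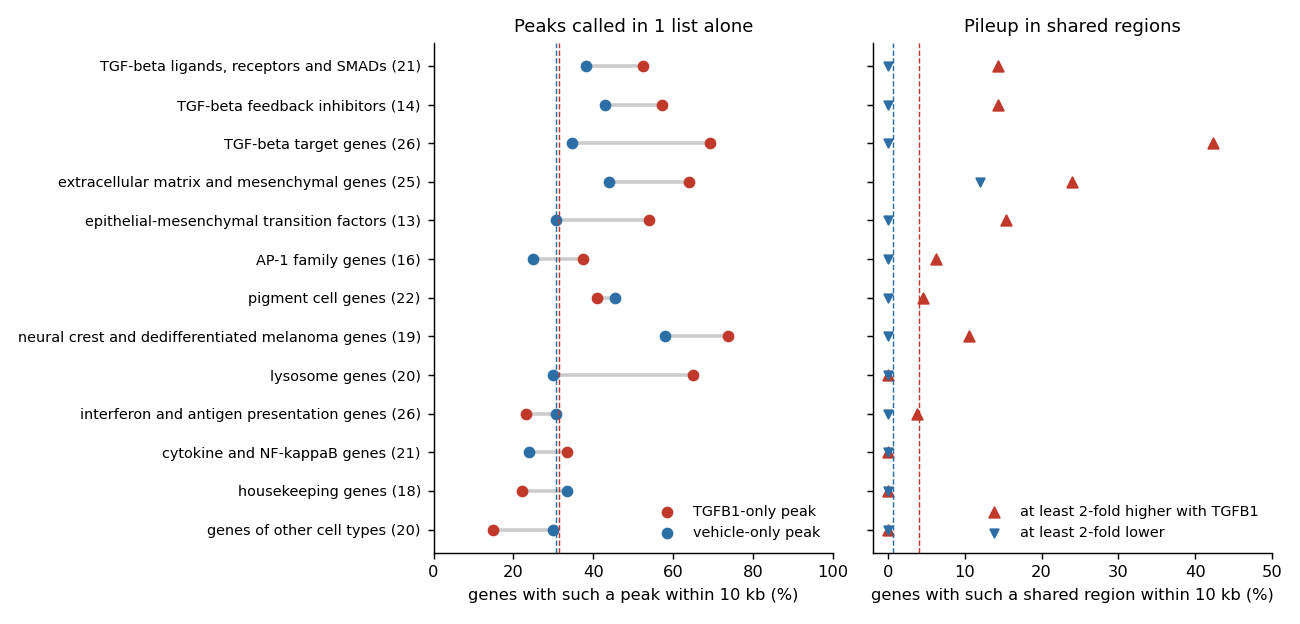
Left, the share of genes in each list (number of genes in brackets) with a TGFB1-only (red) or vehicle-only (blue) H3K27ac peak in the gene or within 10 kb, as dots; dashed lines give the shares over all protein-coding genes, 31.5% and 30.6%. Right, the share with a shared region at least 2-fold higher (red) or lower (blue) with TGFB1, with dashed lines at 4.03% and 0.616%; TGF-beta target genes stand at 42.3%.

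The shared region that widened most lay inside RUNX3, a RUNX family transcription factor, at 5356 bp with TGFB1 and 777 bp in vehicle, with a pileup of 253 against 105 (2.23-fold). The region 14.1 kb outside DNAH17 went from 940 to 4004 bp and from 28 to 161 fragments (5.33-fold). The largest losses of width were smaller. The YIPF3 promoter region spanned 1689 bp with TGFB1 and 3073 bp in vehicle, one inside MACROD2 1268 and 2580 bp, and one inside SNTB1 798 and 2040 bp. At the CTSC promoter, a lysosomal protease gene, widths were 2962 and 4200 bp, and inside CCDC149 431 and 1658 bp. The YIPF3 and CTSC regions kept their pileup, with 138 against 127 and 156 against 162, while 1 vehicle peak was called as several with TGFB1.

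The regions with the largest pileup ratio, among those with at least 40 fragments in the higher library, were chosen after their values were seen and are given as a description. At promoters, COL7A1 was followed by NPLOC4, a cofactor of the p97 segregase (70 and 20, 3.24-fold), EGR2, an early response factor (40 and 12, 3.09-fold), and PALLD, the actin-bundling protein palladin (99 and 31, 2.96-fold). PTK2, which encodes focal adhesion kinase, had 45 and 15 (2.78-fold). Away from promoters, a region inside IL1RL2, an interleukin receptor, had 53 and 7 (7.01-fold), one inside PRKCA, protein kinase C alpha, 81 and 13 (5.77-fold), and one inside NUAK1, an AMPK-related kinase, 58 and 10 (5.37-fold). These 3 held no SMAD2/3, and the other 5 of the 8 largest distal gains, near TGFBI, NEK7, DNAH17, TUBA4B and PPP1R3B, held it. The largest losses were at IL24, a cytokine, with 20 and 51 (0.363-fold), and inside ZDHHC20, a palmitoyltransferase, with 26 and 60 (0.401-fold). All 8 regions at the top of the losses held no SMAD2/3.

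Runs of peaks called on 1 side alone marked some long genes. TGFB1-only against vehicle-only peaks within 50 kb numbered 22 and 2 at CAMTA1, 20 and 1 at GLI2, the Hedgehog pathway factor and a known TGF-beta target, 26 and 9 at RAD51B, 17 and 2 at KIRREL3, 16 and 1 at MYO7B and 19 and 4 at TENM3. SMAD2/3 lay in 0 or 1 of these peaks at each of the 6 genes. In the other direction the numbers were 12 and 26 at BCAR3, 1 and 15 at MACF1, a cytoskeletal linker, 3 and 17 at PTPRJ, a receptor phosphatase, and 5 and 16 at IGF2BP2. Over all 19970 genes, TGFB1-only peaks were more numerous within 50 kb at 6741 and vehicle-only peaks at 5599.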

How the data were processed

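Members and gene lists were chosen with earlier results of these data known. Per the submitters' processing notes, the build was GRCh38 and the tools were Bowtie and MACS2 2.0; each library has its own peak list. The control input and duplicate handling are not given in the sources used here. The design text mentions technical triplicates, and the labels give 1 library for each treatment, so n = 1 per side.

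Each peak's fold enrichment ratio, and its −log10 p and −log10 q, are the authors' deposited values. The deposited score enters no result. Fold and −log10 p were solved for the summit pileup and background of each peak, assuming a pseudocount of 1. The pileup came out whole, within 0.01, in 100.0% of peaks of both lists. Read numbers follow from the lowest background, taking the shortest interval (171 bp) as fragment length and 2.7 Gb as genome size. Pileup ratios in shared regions were divided by the ratio of lowest backgrounds, the pileups themselves were left unscaled, and folds have no pseudocount.

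Promoters have a summit within 1 kb of a start listed by RefSeq (GRCh38.p14), known for 15811 of 19970 protein-coding genes; for the other 4159 either gene end served. The Python functions (3.11.15, pandas 2.3.3, numpy 2.4.6, scipy 1.17.1, figures with matplotlib 3.10.9) were tested on simulated intervals against bedtools 2.31.1. Named genes are the 10 strongest TGFB1-only and 5 strongest vehicle-only peaks at promoters and away from them, the 5 largest gains and 5 largest losses of width, the 8 and 4 genes with the largest excess of TGFB1-only and vehicle-only peaks within 50 kb, and up to 4 members per list with the strongest TGFB1-only peak; other list members described were chosen after their values were seen. Not every gene so named is reported here. The alternatives were other overlap rules, stricter thresholds, equal list lengths, other windows, equal widths and other pileup rules.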

Additional observations from a re-analysis of the deposited data

How the results depend on the processing

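No paired analysis was possible because each treatment has 1 library. Under each setting named here, peak numbers, widths and factor shares stayed higher with TGFB1 alone than in vehicle alone, and promoter shares stayed lower. Peaks called alone (17615 with TGFB1, 13294 in vehicle) numbered 31306 and 29496 with reciprocal overlap of 50%, 11257 and 8169 with a 500 bp margin, 8582 and 5257 at a −log10 q of at least 5 in the list counted, 8740 in vehicle with that threshold in both lists, and 9382 and 6347 at a fold enrichment of at least 6. Promoter shares of TGFB1-only, vehicle-only and shared peaks were 2.77%, 2.89% and 20.9% with a 500 bp window, 10.1%, 12.2% and 28.6% with 2.5 kb, 4.87%, 5.60% and 25.2% by any overlap, and 5.25%, 5.61% and 28.3% at a −log10 q of at least 5. Median widths of the same classes were 257, 234 and 1398 bp with peaks within 1 kb merged and 302, 267 and 764 bp at that threshold.

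Gene list counts moved for TGFB1-only peaks at feedback inhibitors (5 with a 2 kb window) and for vehicle-only peaks at ligands, receptors and SMADs (14 at 50 kb, 5 at the q threshold), feedback inhibitors (3 at the q threshold) and target genes (15 at 50 kb, 5 at the q threshold). With the factor summit inside the acetylated interval, SMAD2/3 shares fell to 0.778% and 0.181% and JUNB shares to 2.95% and 2.63%. At the q threshold they were 5.15% and 0.698%, and 18.4% and 11.96%. At widths of 300 to 600 bp they were 4.08% for SMAD2/3 with TGFB1 alone, and 16.4% and 10.43% for JUNB.

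Chosen after seeing the data, a minimum of 20 fragments in both libraries left 607 shared regions at least 2-fold higher (391 with SMAD2/3) and 11 lower. Scaling to the median of all shared regions gave 316 lower, 1 of them with SMAD2/3. With 1 library a side, none of these settings measures variation between experiments.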

Other observations

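Seen from SMAD2/3, most of the 11302 sites called with TGFB1 lay in chromatin acetylated with and without the ligand. They overlapped a shared H3K27ac region in 73.9%, a TGFB1-only peak in 3.78% (427 sites), a vehicle-only peak in 0.416% and no H3K27ac peak in 21.9% (2473 sites). Shared regions at least 2-fold higher with TGFB1 held 5.55% of the sites. Joined across gaps of up to 1 kb, peaks formed 47151 acetylated domains with TGFB1 and 46073 in vehicle, of which 248 and 208 were wider than 10 kb. The widest spanned 35304 and 32442 bp. SMAD2/3 called in vehicle overlapped 8 TGFB1-only and 5 vehicle-only peaks.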
